A study of Canis lupus familiaris with 6 samples.

Results

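MHC class I molecules present peptides from inside the cell on its surface, and the transcripts described here are 10 genes of that pathway in MDCK cells, an epithelial line from dog kidney. They are the class I heavy chains DLA-88 and DLA-64, the light chain B2M, the transporter genes TAP1 and TAP2, the tapasin gene TAPBP, the immunoproteasome subunits PSMB8, PSMB9 and PSMB10, and the regulator NLRC5. They were picked by gene symbol from 41401 symbols, with earlier results of these data known. All 10 were found (DLA-88 is listed as DLA88), and all 10 reached a mean of 1 FPKM, the level above which 12125 genes were tested.

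RNA was sequenced in 6 libraries, 18 h after the second of the siRNA transfections that every culture received. Mutant cells were homozygous for loss of PRL2 and heterozygous for loss of PRL1 (PRL2-/-; PRL1+/-) and came as clone 1 (line D7) and clone 2 (line F22). Each clone gave 1 library after PRL1 siRNA and 1 after control siRNA, and wild-type MDCK cells likewise gave 1 library after PRL1 siRNA and 1 after control siRNA. PRL1 and PRL2 are phosphatases that bind CNNM magnesium transporters, and the title of the series concerns falling cellular magnesium and NF-κB. Each mutant line is a single clone, and the labels say neither how the alleles were disrupted nor whether libraries came from separate cultures, so p-values measure only the spread between these libraries.

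A class I molecule is a heavy chain bound to β2-microglobulin and a short peptide. Peptides are cut in the cytosol by proteasomes, whose catalytic subunits can be exchanged for inducible ones to form the immunoproteasome, and the TAP transporter carries them into the endoplasmic reticulum, where tapasin holds the empty class I molecule beside TAP. In mammals NLRC5 acts at class I promoters, and interferons and NF-κB are known inducers of these genes in epithelial cells.

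Values are FPKM, read fragments scaled by transcript length and library size, as the authors computed them. Between 22961 and 23964 symbols were above 0 in a library. FPKM keep no absolute depth. Low values put the depth of the other libraries at 0.766 to 0.914 of that of the wild-type control library. PTP4A1, which encodes PRL1, had 33.1, 37.8 and 37.8 FPKM after PRL1 siRNA in wild type, clone 1 and clone 2, against 63.5, 61.7 and 69.9 FPKM after control siRNA. All 12 kidney epithelial markers had a mean of at least 1 FPKM. Fibroblast markers summed to at most 0.0735 FPKM and endothelial markers to at most 1.25 FPKM in any library.

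Transcripts of the heavy chains and of 1 immunoproteasome subunit rose after PRL1 siRNA. Over the 3 lines DLA-88, DLA-64 and PSMB9 rose, by 0.43 to 0.57 on the log2 scale, and each was higher after PRL1 siRNA in 3 of 3 lines. These 3 of 10 genes passed where 5.72% of all genes tested were called higher, and 0 of 10 fell, where 8.38% of all genes were called lower (0 of 10 also at an unadjusted p under 0.05, where 18.7% of all genes were lower). With the line as block, which compares each knockdown library with the control library of its own line, 8 of 10 passed upward, against 17.6% of all genes, and 0 passed downward, against 21.7%. B2M, TAP1, TAP2, PSMB8 and PSMB10 were the genes that passed only with the block. TAPBP and NLRC5 did not pass in either fit. The median log2 fold change of the 10 genes was 0.35, against -0.01 over all genes tested.

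The test was limma on log2(FPKM + 1) with Benjamini-Hochberg adjustment over all 12125 genes and a threshold of 0.05, with genotype as a term. Fold changes are on that log2 scale, which understates changes of low genes such as NLRC5. The unpaired count rested on every library. Leaving out the control sample of clone 2 left 1 call (DLA-64), where 96 of all 12125 genes were called higher. Leaving out any other single library left 0 of 10, and without either wild-type library 0 of all 12125 genes were called. When every gene above 0 was tested without the block, 2 of 10 passed (0.666% of all genes) and PSMB9 did not (limma adjusted p = 0.0877). The paired count was 3 without clone 1, 4 without clone 2 and 10 without wild type. In the same fits 749, 1103 and 1739 of all 12125 genes were called higher. The paired count was 2 (DLA-64 and DLA-88) when every gene above 0 was tested, against 1.61% of all genes.

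In bulk RNA, a change in the number of cells with a transcript and a change in its amount per cell cannot be told apart. The summed level of 15 leukocyte markers was also higher after PRL1 siRNA in 3 of 3 lines, at 840.0 to 1342 FPKM after PRL1 siRNA and 636 to 969.8 FPKM after control siRNA. CD74, the invariant chain of MHC class II, was nearly all of that sum, and without it the sums were 6.45 to 8.96 FPKM after PRL1 siRNA and 7.29 to 8.27 FPKM after control siRNA. Of the 15 markers 3 had a mean of at least 1 FPKM, and the defining markers PTPRC, CD3E, CD3D, MS4A1, NKG7 and GZMB were listed at 0 in all 6 libraries.

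**Figure D1:**
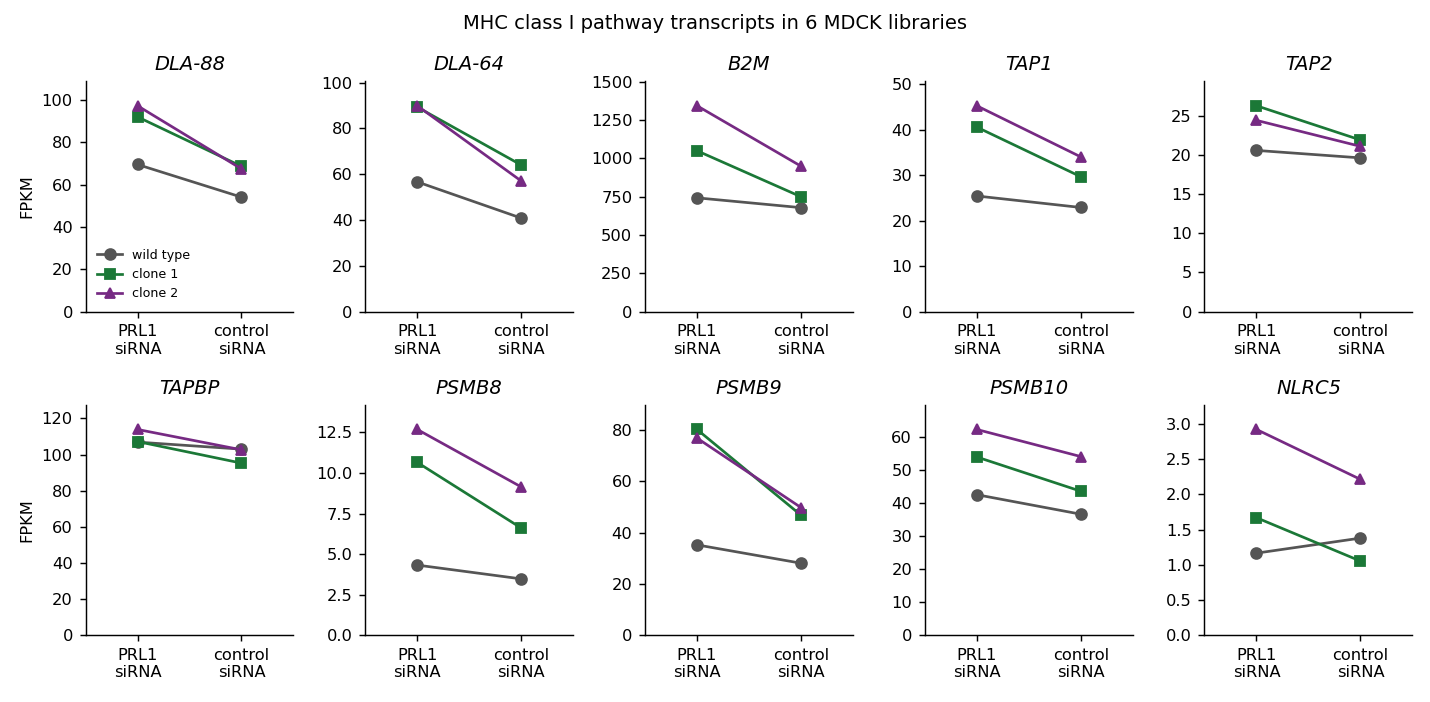
FPKM of the 10 genes in the 6 libraries, 1 panel per gene with its own axis from 0; lines join the PRL1 siRNA and control siRNA libraries of wild type (circles), clone 1 (squares) and clone 2 (triangles). Levels were higher after PRL1 siRNA in 3 of 3 lines for 9 genes; NLRC5 was lower in wild type, at 1.17 FPKM against 1.38 FPKM.

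DLA-88 encodes the classical, most polymorphic class I heavy chain of the dog. It had 69.5 FPKM in wild type, 92.0 in clone 1 and 97.2 in clone 2 after PRL1 siRNA, against 54.1, 68.6 and 67.4 FPKM after control siRNA. All 3 knockdown libraries lay above all 3 control libraries, although wild type after knockdown stood only just above the clones without it. The means were 86.2 ± 14.7 FPKM after PRL1 siRNA and 63.3 ± 8.07 FPKM after control siRNA (SD, n = 3 each), and the log2 fold change was 0.43 ± 0.05 (SE, limma adjusted p = 0.0134; 0.00225 with the line as block).

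DLA-64, another class I heavy chain gene, less polymorphic than DLA-88, had 56.7, 89.3 and 89.9 FPKM after PRL1 siRNA in wild type, clone 1 and clone 2, against 40.8, 64.0 and 57.0 FPKM after control siRNA. The groups overlapped, because wild type after knockdown lay below the control libraries of both clones, just below that of clone 2. Within each line the knockdown library was higher, by 0.46, 0.47 and 0.65 on the log2 scale. The log2 fold change over the lines was 0.53 ± 0.06 (limma adjusted p = 0.0134; 0.00191 with the block). Dog class I heavy chains are close copies of each other, and no source used here says how shared fragments were split among them, so the separate levels of DLA-88, DLA-64 and DLA-12 are uncertain. Their summed level was 169, 243 and 252 FPKM after PRL1 siRNA, against 129.7, 174 and 167 FPKM after control siRNA, higher in 3 of 3 lines.

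B2M, the light chain shared by all class I molecules and by several related receptors, was by far the most abundant of the 10. It had 743, 1050.1 and 1344 FPKM after PRL1 siRNA in wild type, clone 1 and clone 2, against 679, 750.0 and 949 FPKM after control siRNA. The lines differed widely and the groups overlapped: wild type after knockdown was below both control libraries of the clones. B2M had a log2 fold change of 0.37 ± 0.15 over the lines and did not pass (limma adjusted p = 0.154), while with the block it did (0.37 ± 0.08, adjusted p = 0.0165). The difference was 0.13 in wild type, against 0.48 and 0.50 in the clones.

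TAP1 and TAP2 encode the subunits of the peptide transporter. TAP1 had 25.5, 40.6 and 45.3 FPKM after PRL1 siRNA in wild type, clone 1 and clone 2, against 22.9, 29.7 and 34.1 FPKM after control siRNA. Its log2 fold change of 0.33 ± 0.09 missed the threshold without the block (limma adjusted p = 0.0727) and passed with it (adjusted p = 0.0137). TAP2 had a smaller fold change, with 20.6, 26.3 and 24.4 FPKM after PRL1 siRNA, against 19.6, 21.9 and 21.1 FPKM after control siRNA. Its log2 fold change was 0.17 ± 0.06 (limma adjusted p = 0.112; 0.0389 with the block). For both genes wild type after knockdown lay below the control libraries of both clones.

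TAPBP encodes tapasin, which bridges TAP and the empty class I molecule and edits its peptide. It was the steadiest of the 10, with a highest level 1.20 times the lowest. TAPBP had 106.9, 107.2 and 113.9 FPKM after PRL1 siRNA in wild type, clone 1 and clone 2, against 103.0, 95.3 and 102.6 FPKM after control siRNA. The 3 knockdown libraries were all above the 3 control libraries, yet the log2 fold change of 0.12 ± 0.06 did not pass (limma adjusted p = 0.189; 0.0506 with the block). Only DLA-88 and TAPBP, 2 of 10, had groups that did not overlap in this way, where 12.6% of all genes tested did.

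PSMB9 encodes β1i, the inducible subunit that takes the place of PSMB6. It had 35.2, 80.2 and 76.8 FPKM after PRL1 siRNA in wild type, clone 1 and clone 2, against 28.1, 46.8 and 49.8 FPKM after control siRNA. The clones were high in both treatments, and wild type after knockdown stayed below both clones' control libraries. The log2 fold change of 0.57 ± 0.09 was the highest of the 10 genes (limma adjusted p = 0.0224; 0.00632 with the block), and 2.1% of all genes tested had a higher one.

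PSMB8 and PSMB10 encode β5i and β2i, the inducible counterparts of PSMB5 and PSMB7. PSMB8 had 4.33, 10.7 and 12.7 FPKM after PRL1 siRNA in wild type, clone 1 and clone 2, against 3.48, 6.61 and 9.15 FPKM after control siRNA. Its log2 fold change was 0.43 ± 0.14 (limma adjusted p = 0.0976; 0.00969 with the block). PSMB10 had 42.6, 54.0 and 62.3 FPKM after PRL1 siRNA, against 36.7, 43.6 and 54.1 FPKM after control siRNA, a log2 fold change of 0.24 ± 0.10 (limma adjusted p = 0.167; 0.00775 with the block). In both genes the order of the lines was wild type lowest, clone 1 next and clone 2 highest under either siRNA. In the RefSeq annotation TAP2, PSMB8, TAP1 and PSMB9 are immediate neighbours in that order, so the 4 genes share a short stretch of the MHC region while their log2 fold changes ran between 0.17 and 0.57.

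NLRC5, the class I transactivator, was the lowest of the 10 and the only one that did not move the same way in every line. NLRC5 had 1.17, 1.67 and 2.92 FPKM after PRL1 siRNA in wild type, clone 1 and clone 2, against 1.38, 1.05 and 2.21 FPKM after control siRNA. It was higher after knockdown in both clones and lower in wild type, and clone 2 without knockdown was above clone 1 with it. The log2 fold change over the lines was 0.18 ± 0.24 (limma adjusted p = 0.654; 0.27 with the block), and its sign turned to -0.05 when the clone 1 control sample was left out and to -0.03 when clone 2 after knockdown was.

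**Figure D2:**
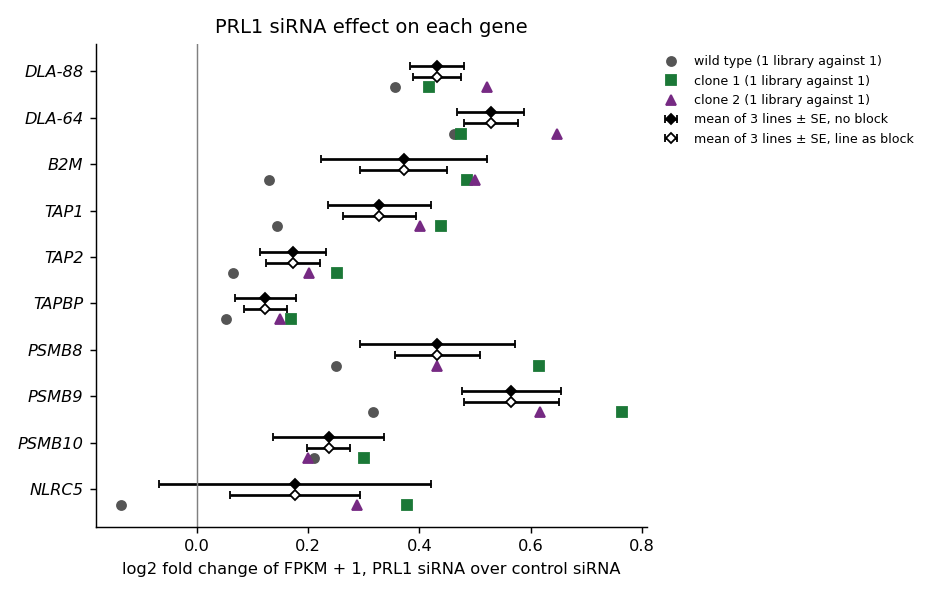
Log2 fold change of FPKM + 1 for each gene, PRL1 siRNA over control siRNA: filled diamonds are the mean over 3 lines with the SE of the fit without block, open diamonds the same mean with the SE of the fit with the line as block, and coloured symbols the single lines, 1 library against 1. PSMB9 has the highest mean (0.57), TAPBP the lowest (0.12), and NLRC5 in wild type is the only point below 0 (-0.14).

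Taken line by line, 9 of 10 genes were higher after PRL1 siRNA in each of the 3 lines, NLRC5 being the exception, against 31.6% of all genes tested. On the scale of FPKM + 1, a change of at least 1.5-fold was reached by 0 of 10 genes in wild type, where 2.09% of all genes were at least that much higher. It was reached upward by PSMB8 and PSMB9 in clone 1 (2.71% of all genes) and by DLA-64 and PSMB9 in clone 2 (2.14%). In plain FPKM NLRC5 also reached it in clone 1, at 1.58-fold. These line values compare 1 library with 1 and have no replicate check. The median log2 fold change of the 10 genes was 0.18 in wild type, 0.43 in clone 1 and 0.42 in clone 2, while that of all genes tested was -0.00385, -0.01 and -0.02 in the same lines.

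In the mutant clones alone, the fit without block called 0 of 10 genes and 0 of all 12125 (0.0%), with 6 of 10 at an unadjusted p under 0.05 in the higher direction, against 9.04% of all genes. With the clone as block all 10 genes passed in the higher direction, against 14.5% of all genes, and 0 in the lower direction, against 19.2%. With libraries scaled to a common median 2336 genes were called higher and 2035 lower, beside 1762 and 2330 without scaling, and the 10 genes passed again. The paired log2 fold changes ran between 0.16 ± 0.03 for TAPBP and 0.69 ± 0.05 for PSMB9 (limma adjusted p = 0.0285 and 0.00638). NLRC5 was nearest to the threshold, at 0.33 ± 0.09 (limma adjusted p = 0.048). Only 1 residual degree of freedom is left in that fit. When every gene above 0 was tested with the block, limma called 0 of 10 genes and 0 of 27931, with 9 of 10 at an unadjusted p under 0.05 in the higher direction, against 10.7% of all genes.

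The mutant clones also had higher levels than wild type for most of the 10 genes, most of all for the immunoproteasome subunits PSMB8 and PSMB9. Under PRL1 siRNA both clones were above wild type for 10 of 10 genes, where 42.9% of all genes tested were. Under control siRNA this held for 8 of 10, where 43.6% of all genes were, with TAPBP below wild type in both clones and NLRC5 below it in clone 1. None of these differences passed: limma called 0 of 12125 genes (0.0%) in either comparison. At an unadjusted p under 0.05 it gave 7 of 10 genes higher in the clones under PRL1 siRNA (9.65% of all genes) and 5 of 10 under control siRNA (9.39%). Each comparison has 2 clones against 1 wild-type library, and the lone library was assumed to vary like the mutant groups. Genotype cannot be told apart from differences between single clones.

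PSMB8 stood furthest from wild type. Its level in clone 1 and clone 2 was 2.46 and 2.93 times that of wild type under PRL1 siRNA and 1.90 and 2.63 times under control siRNA. The log2 differences of the clones from wild type were 1.24 ± 0.22 under PRL1 siRNA and 0.97 ± 0.22 under control siRNA (SE, limma adjusted p = 0.227 and 0.287). PSMB9 was at 2.27 and 2.18 times wild type under PRL1 siRNA and at 1.67 and 1.77 times under control siRNA, with log2 differences of 1.13 ± 0.08 and 0.76 ± 0.08 (limma adjusted p = 0.219 and 0.245). On the scale of FPKM + 1, both clones were at least 1.5-fold above wild type for PSMB8, PSMB9, DLA-64 and TAP1 under PRL1 siRNA, 4 of 10 genes against 1.45% of all genes tested. Under control siRNA only PSMB8 and PSMB9 were, 2 of 10 genes against 1.3%.

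DLA-64 was higher in the clones by 0.65 ± 0.09 under PRL1 siRNA and by 0.55 ± 0.09 under control siRNA (limma adjusted p = 0.219 and 0.251), and DLA-88 by 0.44 ± 0.07 and 0.33 ± 0.07 (0.221 and 0.283). TAP1 differed by 0.73 ± 0.12 under PRL1 siRNA and 0.46 ± 0.12 under control siRNA (0.223 and 0.313). For B2M the clones did not match each other: clone 1 was at 1.41 times wild type under PRL1 siRNA and 1.10 times under control siRNA, and clone 2 at 1.81 and 1.40 times. TAPBP showed log2 differences of 0.05 ± 0.09 and -0.06 ± 0.09, the smallest of the 10 in size under either siRNA. All 4 mutant libraries lay above both wild-type libraries for 7 of 10 genes, namely B2M, DLA-64, TAP1, TAP2, PSMB8, PSMB9 and PSMB10, where 17.5% of all genes tested did.

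**Figure D3:**
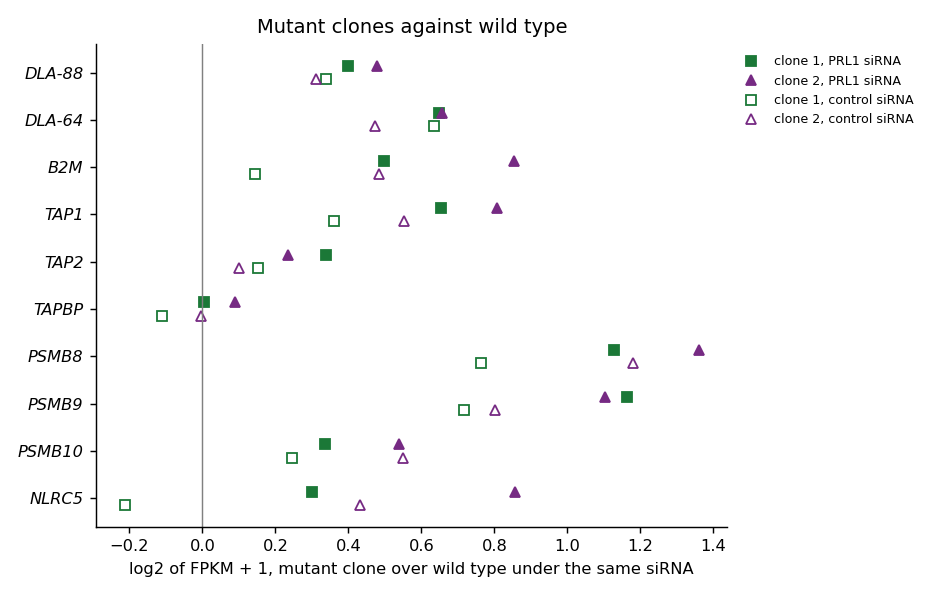
Log2 of FPKM + 1 in each mutant clone over wild type under the same siRNA; filled symbols are PRL1 siRNA, open symbols control siRNA, squares clone 1 and triangles clone 2, each 1 library against 1. PSMB8 and PSMB9 lie furthest to the right, and TAPBP lies between -0.11 and 0.09.

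The effect of PRL1 siRNA was nominally larger in both clones than in wild type for 9 of 10 genes, PSMB10 being the exception, where 36.5% of all genes tested showed this order. The difference itself did not pass for any of the 10. The interaction test called 0 of 12125 genes (0.0%), and 1 of 10 (PSMB9) had an unadjusted p under 0.05, against 0.371% of all genes in the same direction. PSMB9 had an interaction of 0.37 ± 0.11 log2 units (limma adjusted p = 0.99995). With the clone as block 1 of all 12125 genes passed (0.00825%) and 0 of the 10, with 4 of 10 (B2M, NLRC5, PSMB9 and TAP1) at an unadjusted p under 0.05, against 3.88% of all genes.

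Transcripts of the inducible proteasome subunits were compared with those of their constitutive counterparts as a ratio of FPKM within a library. The exchange of subunits in the proteasome itself was not measured. PSMB9 per PSMB6 was 0.164, 0.352 and 0.332 after PRL1 siRNA in wild type, clone 1 and clone 2, against 0.141, 0.201 and 0.201 after control siRNA. PSMB8 per PSMB5 was 0.0245, 0.0558 and 0.0574, against 0.0201, 0.0334 and 0.0388, and PSMB10 per PSMB7 was 0.359, 0.401 and 0.478, against 0.306, 0.334 and 0.401. All 3 ratios were higher after PRL1 siRNA in 3 of 3 lines, and both clones were above wild type under either siRNA. With 3 lines an exact sign test of such a ratio cannot go below p = 0.25, so none is given. The denominators had log2 fold changes near 0 over the lines: -0.04 ± 0.09 for PSMB5, -0.01 ± 0.06 for PSMB6 and -0.01 ± 0.04 for PSMB7 (limma adjusted p = 0.812, 0.946 and 0.919). The last 2 were at 0.02 each when libraries were scaled to a common median.

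**Figure D4:**
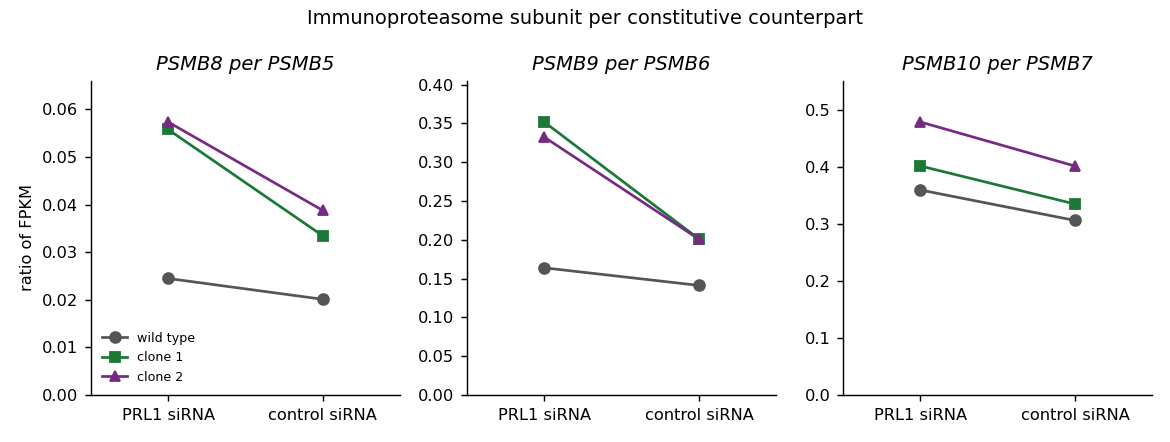
Ratio of FPKM of each inducible proteasome subunit to its constitutive counterpart, 1 panel per subunit with its own axis from 0; lines join the PRL1 siRNA and control siRNA libraries of a line. Every line falls to the right, and both clones lie above wild type in each panel.

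Beyond the 10 genes, 75 other genes from 7 lists of the pathway were tested. In these, 7 rose and 7 fell over the 3 lines, where 5.72% of all genes rose and 8.38% fell. With the line as block 21 passed upward and 14 downward, where 17.6% and 21.7% of all genes did, and their median log2 fold change was -0.01, as over all genes tested to 2 decimals. Among other heavy chains and related genes, 4 of 8 listed genes were tested. Of these 1 rose and 0 fell in limma (2 and 0 at an unadjusted p under 0.05, 3 and 0 with the block), with a median of 0.26. DLA-12, a further class I heavy chain, rose by 0.49 ± 0.07 (limma adjusted p = 0.0204). FCGRT, the neonatal Fc receptor, was at 0.20 ± 0.05 (adjusted p = 0.0646; 0.021 with the block). PROCR, the endothelial protein C receptor, was at 0.31 ± 0.34 (adjusted p = 0.568; 0.0441 with the block), and HFE, which acts in iron sensing, at 0.20 ± 0.11 (adjusted p = 0.255). DLA-79 was listed at 0 in all 6 libraries.

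Among loading and folding factors of the endoplasmic reticulum, 3 chaperones fell. The peptide-trimming enzymes were higher in 3 of 3 lines and passed only with the block. Of 13 genes tested in limma 0 rose and 3 fell (2 and 4 at an unadjusted p under 0.05), while 5.72% and 8.38% of all genes did. With the block 2 passed upward and 5 downward, where 17.6% and 21.7% of all genes did. The median of the 13 was -0.02. The chaperones HSPA5, HSP90B1 and CALR fell, with log2 fold changes of -1.47 ± 0.19, -0.55 ± 0.10 and -0.42 ± 0.09 (limma adjusted p = 0.0165, 0.0311 and 0.0462). CALR encodes calreticulin, which holds the class I molecule in the loading complex, and had 263, 278 and 246 FPKM after PRL1 siRNA in wild type, clone 1 and clone 2, against 386, 364 and 306 FPKM after control siRNA. CANX (calnexin) was at -0.12 ± 0.05 and PDIA3 (ERp57, the tapasin partner) at -0.11 ± 0.05 (adjusted p = 0.172 and 0.181; 0.0416 and 0.0722 with the block). The aminopeptidases that trim peptides had positive fold changes and passed only with the block: ERAP2 was at 0.69 ± 0.21 and ERAP1 at 0.19 ± 0.07 (adjusted p = 0.0902 and 0.133; 0.00374 and 0.0234 with the block). TAPBPL, the tapasin relative TAPBPR, did not pass in either fit (0.11 ± 0.09, adjusted p = 0.41; 0.187 with the block).

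Among 10 constitutive proteasome and activator genes limma called 0 in either direction (1 higher and 0 lower at an unadjusted p under 0.05). With the block it called 1 higher and 0 lower, and the median was -0.01. All genes tested gave 5.72% higher and 8.38% lower, or 17.6% and 21.7% with the block. The call with the block was PSME2, which encodes a subunit of the interferon-inducible PA28 activator, at 0.17 ± 0.05 (limma adjusted p = 0.0786; 0.027 with the block). Its partner PSME1 was at 0.06 ± 0.06 (adjusted p = 0.579). The core subunits PSMA3 and PSMA7 were at -0.10 ± 0.06 and -0.07 ± 0.04 (adjusted p = 0.293 and 0.316). Of 8 cytosolic peptidases and chaperones 0 passed in limma without the block (1 higher and 2 lower at an unadjusted p under 0.05), while 1 passed upward and 2 downward with it, and their median was -0.07. NPEPPS, an aminopeptidase, was at 0.31 ± 0.10, and LAP3 and BLMH, also peptidases, were at -0.15 ± 0.05 and -0.18 ± 0.12 (adjusted p = 0.00455, 0.0336 and 0.0219 with the block). THOP1, which degrades peptides in the cytosol, was at -0.16 ± 0.05 (adjusted p = 0.112).

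Of 13 transcription factors that act at class I promoters 1 rose and 1 fell, close to the shares of all genes (5.72% and 8.38%), or 4 and 2 with the block (17.6% and 21.7% of all genes), with a median of -0.04. RFXANK, a subunit of the RFX complex through which NLRC5 binds promoters, rose by 0.30 ± 0.07 (limma adjusted p = 0.0424), while RFX5 of the same complex was at -0.11 ± 0.04 (adjusted p = 0.154). IRF1, an activator of class I and immunoproteasome promoters, had 35.7, 53.1 and 53.8 FPKM after PRL1 siRNA in wild type, clone 1 and clone 2, against 27.0, 29.6 and 44.1 FPKM after control siRNA. IRF1 was higher in 3 of 3 lines, at 0.50 ± 0.15, and passed with the block (adjusted p = 0.0161; 0.0842 without it). IRF2 was at 0.37 ± 0.10 and CIITA, the class II counterpart of NLRC5, at 0.81 ± 0.21 (adjusted p = 0.00965 and 0.00514 with the block; 0.0665 and 0.0623 without it).

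Of 18 interferon and NF-κB signalling genes tested 4 rose and 2 fell, where 5.72% of all genes rose and 8.38% fell. With the block 7 passed upward and 3 downward, where 17.6% and 21.7% of all genes did. The median of the 18 was 0.16. The rises include NFKBIA, the inhibitor IκBα, by 1.30 ± 0.17, and RELB and NFKB2, the subunits of the noncanonical NF-κB dimer, by 0.80 ± 0.10 and 0.67 ± 0.07 (limma adjusted p = 0.0167, 0.0165 and 0.0133). RELA, the canonical subunit, was at -0.01 ± 0.05 (adjusted p = 0.926), or at 0.02 after scaling to a common median. IFNAR1, a chain of the type I interferon receptor, fell by 0.64 ± 0.06 (limma adjusted p = 0.0102), with 14.7, 16.3 and 14.7 FPKM after PRL1 siRNA, against 23.9, 24.3 and 24.8 FPKM after control siRNA. The ligand genes in this list were near or at 0: IFNG was listed at 0 in all 6 libraries, and IFNB1, IFNL1, IL1B and TNF did not exceed 0.0474, 0.0344, 0.00897 and 0.0698 FPKM. Other ligands that could induce class I genes were not examined here.

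Genes of class I turnover and repression gave 1 rise and 1 fall among 9 tested, or 3 and 2 with the block, with a median of 0.06. All genes tested gave 5.72% and 8.38%, or 17.6% and 21.7% with the block. Counts among 9 genes are too small to be read as a result about this list. SUSD6, which directs class I molecules to degradation in human cells, rose by 0.40 ± 0.07 (limma adjusted p = 0.0287). SUZ12, a subunit of the Polycomb complex that can silence the pathway, fell by 0.32 ± 0.07 (adjusted p = 0.0401). TMEM127, a partner of SUSD6, was at 0.26 ± 0.07 and the ubiquitin ligase gene MARCHF9 at 0.29 ± 0.11 (adjusted p = 0.0655 and 0.146; 0.00568 and 0.0274 with the block).

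**Figure D5:**
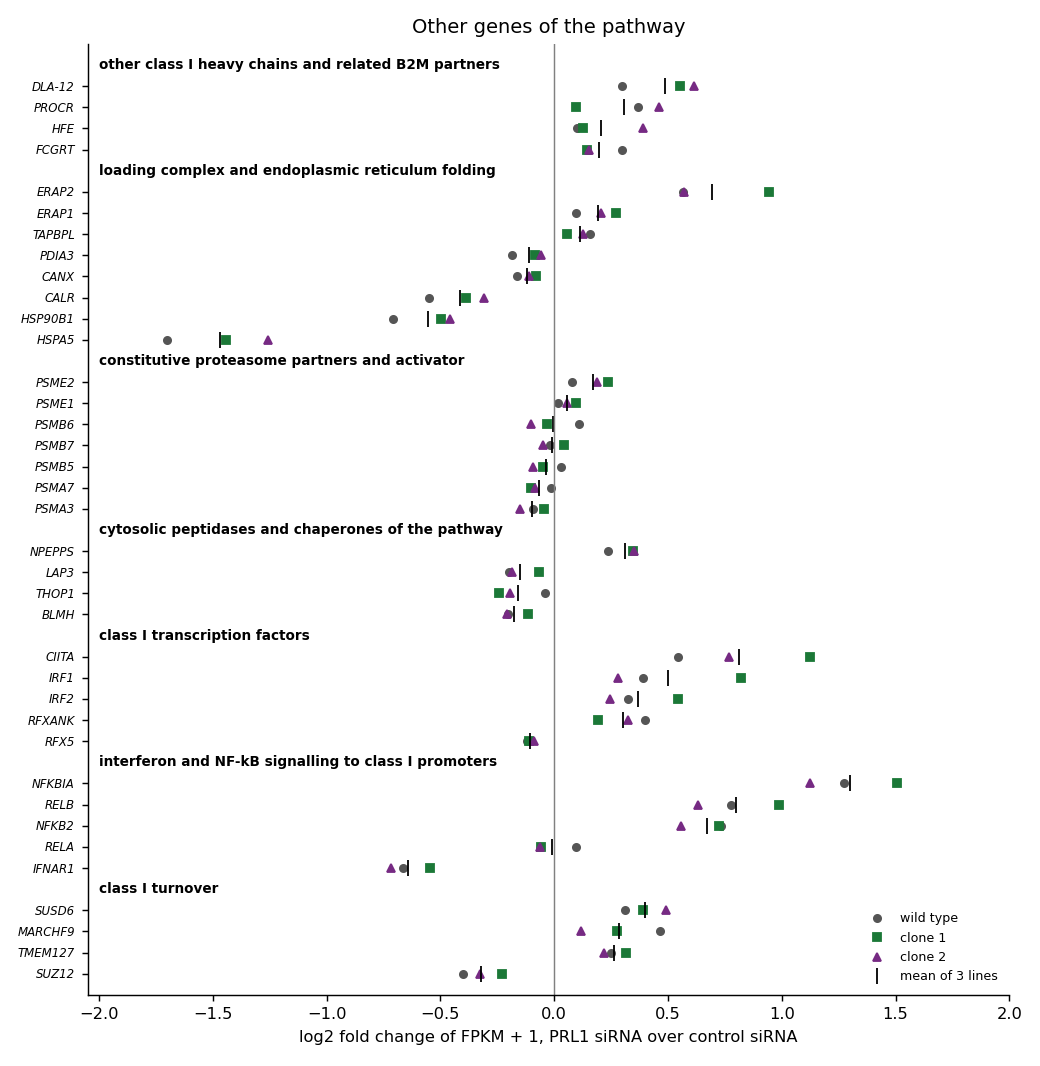
Log2 fold change of FPKM + 1, PRL1 siRNA over control siRNA, for the named genes of the 7 lists; coloured symbols are single lines, 1 library against 1, and the black bar is their mean. The chaperone HSPA5 is furthest left (-1.47), NFKBIA furthest right (1.30), and PSMB5, PSMB6 and PSMB7 lie near 0.

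Genes whose levels ran most like the mean of the 10 over the 6 libraries were MAL, RTF1, GCSH, ATG16L1 and PSMD11, with Pearson's r of 0.999, 0.997, 0.995, 0.993 and 0.992 on log2(FPKM + 1). MAL, a membrane protein of apical transport in MDCK cells, had 371, 487 and 548 FPKM after PRL1 siRNA in wild type, clone 1 and clone 2, against 328, 378 and 427 FPKM after control siRNA. SDC4, TRIAP1 and DYNC1LI2 ran most like NLRC5 (r of 0.991, 0.989 and 0.983), and PIK3R4, ANXA7 and SEMA4F most like B2M (0.998, 0.997 and 0.996). The 6 libraries share lines and treatments, and 379 of the 8415 genes considered had an r above 0.9 with the mean of the 10, so these values only describe the libraries.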

How the data were processed

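FPKM values were deposited by the authors for each symbol in each library, per the file headers. The submitters' processing notes name HISAT2 2.1.0, Cufflinks 2.2.1 and Cuffdiff. Build, annotation and strand setting: not given in the sources used here. No coordinates are printed for that reason, and overlapping genes may share fragments. RefSeq assembly UU_Cfam_GSD_1.0 gave names (10 of 10 genes matched) and neighbours only. Absolute depth is unknown, and relative depth was read from values below 0.1 FPKM.

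Groups and clones came from the labels. limma 3.58.1 (R 4.3.3) was fitted to log2(FPKM + 1) with an intensity trend, keeping genes whose mean reached 1 FPKM. The siRNA effect over 3 lines used treatment and genotype terms, and other contrasts a 4-group model. The line as replicate block was the alternative. Numbers pair the samples because they mark the same clone, and deviations of same-clone libraries from their group means correlated at r = 0.595. "Rose" and "fell" are kept for calls without the block. Only the fits of the siRNA effect over 3 lines, with and without the block, were tested on simulated data.

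The 10 genes, the pathway lists and the markers were chosen with earlier results of these data known. Named from each list were the 4 with the largest absolute log2 fold change over 3 lines, plus a fixed set (CALR, CANX, PDIA3, TAPBPL, PSMB5, PSMB6, PSMB7, PSME1, PSME2, IRF1, RFX5, RELA, CIITA and ERAP1); 1 further gene of that set is not reported here. Genes listed at or near 0 were named after their values were seen. Likeness was ranked among annotated symbols outside the lists whose mean reached 5 FPKM.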

Additional observations from a re-analysis of the deposited data

Results flagged for a closer look

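Only the class I pathway genes and the genes named from the lists were searched here. Among them, 4 had a log2 fold change of one sign in both clones and of the other sign in wild type. The share of all genes tested with this pattern is not given. Each line value compares 1 library with 1, and several lie close to no change. NLRC5 was at 0.38 in clone 1, 0.29 in clone 2 and -0.14 in wild type on the log2 scale, and the clones minus wild type came to 0.468 ± 0.55 (SE). PSMB5, a constitutive proteasome subunit, was at -0.05 in clone 1, -0.09 in clone 2 and 0.03 in wild type, a difference of -0.102 ± 0.22. For PSMB6 these values were -0.03, -0.10 and 0.11, a difference of -0.177 ± 0.10. RELA was at -0.06 in each clone and 0.09 in wild type, a difference of -0.156 ± 0.10. The interaction test passed none of the 4 (limma adjusted p = 0.99995 for each; unadjusted p = 0.444, 0.669, 0.166 and 0.201 for NLRC5, PSMB5, PSMB6 and RELA).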

How the results depend on the processing

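For the siRNA effect over 3 lines, 1710 genes and 3 of the 10 were called. Testing every gene above 0 gave 497 genes and 2 of the 10. With the line as replicate block 4762 genes and 8 of the 10 passed, or 4742 and 9 with median scaling added. Leaving out each library gave 0 to 268 genes and 0 to 1 of the 10 without the block. Leaving out each line, both its libraries together, gave 1709 to 4037 genes and 3 to 10 of the 10 with the block. In the clones alone the block called 4092 genes and 10 of the 10, or 4371 and 10 with median scaling, against 0 without the block. With every gene above 0 tested, 240 genes separated clones from wild type after PRL1 siRNA, 165 after control siRNA, and 157 passed in the interaction. Without the intensity trend 4 differed under control siRNA and 4 in the interaction, and the replicate block gave 1 in the interaction. None of these was among the 10. Genes at least 1.5-fold changed in wild type numbered 447, or 719 with a pseudocount of 0.1. The blocked median-scaled, all-gene and leave-one-line fits were chosen after seeing the data.

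Some signs turned. Median scaling, with or without the replicate block, gave PSMB6 a log2 fold change of 0.0210, PSMB7 one of 0.0205 and RELA one of 0.0189. Without single libraries NLRC5 ran from -0.0524 to 0.333, PSMB5 from -0.100 to 0.0444, PSMB6 from -0.0662 to 0.0355, PSMB7 from -0.0228 to 0.00487 and RELA from -0.0612 to 0.0220. With the replicate block PSMB6 was at 0.00476 and RELA at 0.0156 without clone 1, and PSMB6, PSMB7 and RELA at 0.0398, 0.0137 and 0.0178 without clone 2. NLRC5 in clones against wild type under control siRNA ran from -0.213 to 0.433, and the PSMB10 interaction from -0.112 to 0.193. The other 9 of the 10 kept the sign of their siRNA effect over 3 lines in every setting. NLRC5, and any other gene whose mean was under 5 FPKM, had no value where that mean was required. Why these values moved was not tested. Depth is unknown for these files, so no counting interval could be given.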

Other observations

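Heavy and light chain transcripts did not keep a fixed ratio. B2M per summed DLA-88, DLA-64 and DLA-12 was 4.39, 4.33 and 5.32 after PRL1 siRNA in wild type, clone 1 and clone 2, against 5.24, 4.30 and 5.69 after control siRNA, so it was higher after PRL1 siRNA in 1 of 3 lines. TAP1 per TAP2 was 1.24, 1.55 and 1.86 after PRL1 siRNA, against 1.17, 1.36 and 1.62 after control siRNA, higher in 3 of 3 lines. DLA-64 per DLA-88 was 0.816, 0.971 and 0.925, against 0.756, 0.933 and 0.846, also higher in 3 of 3 lines. That ratio is uncertain, because how fragments shared by the heavy chains were split is unknown.

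Across the 6 libraries TAP1 and PSMB8 ran most alike of the 10 genes (r = 0.987), followed by DLA-88 and DLA-64 (r = 0.984), and the lowest r was that of TAPBP with PSMB8 (0.418). These are descriptions over libraries that share lines, and how fragments shared by DLA-88 and DLA-64 were split is unknown.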
